A study of Mus musculus with 4 samples.

Results

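Adrenal gland RNA was read for 10 enzymes that make, elongate and desaturate fatty acids (Acly, Acaca, Fasn, Me1, Scd1, Scd2, Fads1, Fads2, Elovl5 and Elovl6) in male V1a knockout mice and wild-type mice at 2 months of age. The members were taken by name, as every probe set whose annotation gives exactly 1 of these genes: 26 of the 45037 probe sets on the array. Of these, 20 probe sets were bright enough to test, among 17228 tested in all, and each of the 10 genes had at least 1 of them. There were 2 arrays per genotype, 1 per sample, of short oligonucleotides (Mouse Genome 430 2.0). The knockout mice lack V1a, the vasopressin receptor encoded by Avpr1a. The sources used here give neither the strain nor the part of the gene that was removed. They also do not say whether the arrays of a genotype hold different animals, so every error and p-value covers the spread of these samples alone, which may be technical.

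Cells build saturated fatty acids from cytosolic acetyl-CoA: citrate is split to acetyl-CoA, carboxylated to malonyl-CoA and joined into palmitate, with NADPH as the reducing agent. Elongases then add carbons and desaturases add double bonds, which sets the mix of saturated, monounsaturated and polyunsaturated chains. Most of these genes are targets of SREBP-1, the transcription factor made from Srebf1, while the related SREBP-2 acts mainly on cholesterol synthesis. In the adrenal cortex fatty acids are needed to esterify the cholesterol held in lipid droplets, which is the store for steroid synthesis, and the adrenal is known to be rich in long polyunsaturated cholesteryl esters.

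The values are log2 expression units, with a floor of 2.30 that the dimmest probe sets share, and every difference is knockout minus wild type. Adrenal identity was plain on all arrays: Star, which carries cholesterol into mitochondria, read 14.24 and 14.17 in knockout glands and 14.12 and 14.23 in wild-type glands. Avpr1a itself read between 2.31 and 2.60 on every array of both genotypes, so it does not check the genotype labels. Wild-type array 1 stood apart, with a correlation of 0.919 to 0.924 to the other arrays over tested probe sets, where the other pairs reached 0.974 to 0.986. It also carried liver transcripts: Alb, the serum albumin gene, read 8.86 there and 2.42 to 2.43 on the other arrays. Member differences are therefore also given without it. So are the differences stated for other named genes, where leaving it out moved them by over 1.5 times. RNA of whole glands was measured, so fewer cells of a type and less RNA per cell cannot be told apart.

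Of the 10 enzymes, 9 read lower on average in the knockout and 1 higher, and the median difference was -0.40, beside -0.05 over all 10110 tested genes, of which 56.0% read lower. A gene is represented here by its tested probe set with the highest mean. The differences were unequal: Elovl6 differed by -1.32, Scd1, Acaca and Fasn by -0.84 to -0.66, Fads1, Fads2 and Elovl5 by -0.49 to -0.26, and Me1, Scd2 and Acly by -0.06 to 0.07. Without wild-type array 1 the median of the enzymes was -0.27 and that of all genes 0.04. Elovl6 then differed by -1.49, Scd1 by -0.77, Acaca by -0.24 and Fasn by -0.02. Fads1 differed by -0.41, Fads2 by -0.36, Elovl5 by -0.31, Me1 by -0.13, Scd2 by 0.09 and Acly by 0.03. None of the 20 probe sets passed an adjusted p of 0.05 in limma (Benjamini-Hochberg over all probe sets), and 0 (0%) of the 17228 tested did, with member values of 0.794 to 0.995. At an unadjusted limma p under 0.05 there were 2 of 20, both of Elovl6 and both lower, against 5.14% of all probe sets in either direction and 3.01% in the lower direction. Counted by gene this was 1 of 10, against 5.06% of all genes. An exact permutation test of 2 arrays against 2 cannot go below p = 0.3333, so none is given for single genes, and each error below is limma's.

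Both knockout arrays lay below both wild-type arrays in 8 of the 20 member probe sets, where 20.0% of all probe sets did, and above them in 1, where 17.4% of all did. By gene the lower pattern held for 5 of 10 (Elovl6, Elovl5, Scd1, Fads1 and Fads2), against 20.5% of all genes. In 3 genes, Elovl6, Fads1 and Elovl5, the difference between genotypes was also larger than both gaps between arrays of 1 genotype. The share of all genes with this pattern was not counted, so this says nothing about the members as a group. The genotypes overlapped in Scd2, Acaca, Fasn and Me1, and in the other tested probe sets of Elovl5, Scd1, Fads1 and Acly. The plot of all member probe sets by array shows this.

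**Figure D1:**
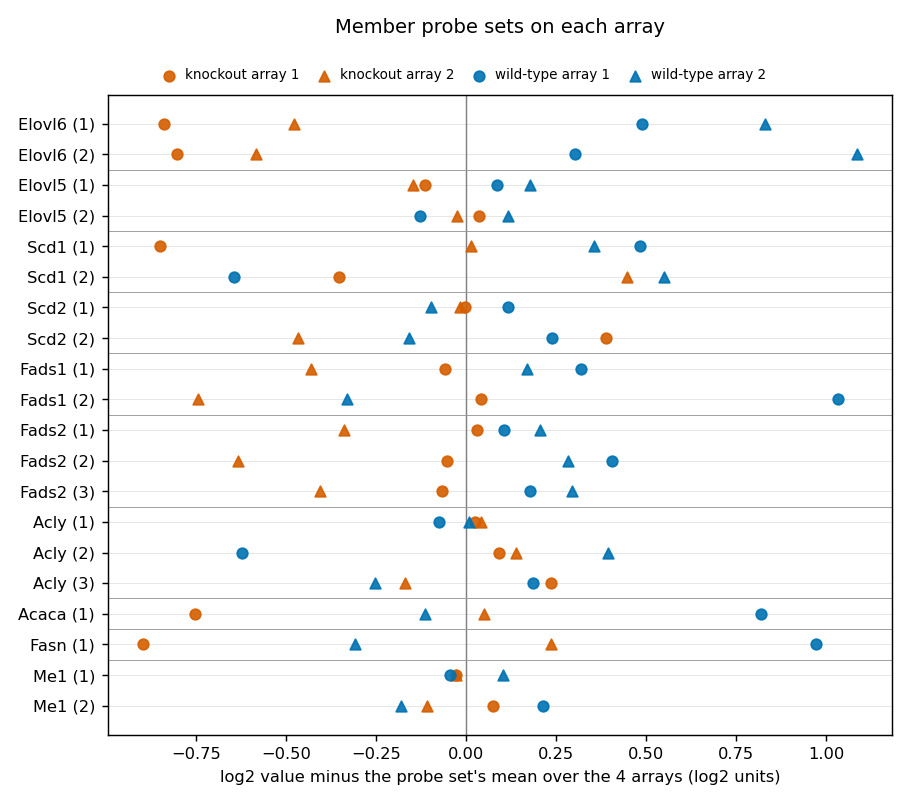
Log2 value of each of the 20 tested member probe sets on each array, minus that probe set's mean over the 4 arrays; knockout arrays are orange, wild-type arrays blue, and number 1 of each gene is the probe set that stands for it. Both Elovl6 and all 3 Fads2 probe sets have both knockout arrays to the left of both wild-type arrays, whereas wild-type array 1 is far to the right of wild-type array 2 for Acaca and Fasn.

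Elovl6 elongates palmitate and palmitoleate to chains of 18 carbons, stearate and vaccenate. Its first probe set read 7.42 and 7.78 in knockout glands, against 8.75 and 9.09 in wild-type glands. Both knockout arrays were below both wild-type arrays by a gap wider than the gaps of 0.36 and 0.34 between arrays of a genotype. The means were 7.60 ± 0.26 in the knockout and 8.92 ± 0.24 in wild type (SD, n = 2 each), a difference of -1.32 (SE 0.24, 95% interval -2.00 to -0.64), which puts the knockout at 40.1% of wild type. In limma the adjusted p = 0.794 over all probe sets did not pass the threshold. Of the 10110 genes, 62 (0.613%) had a difference as low or lower. Elovl6 is the member with the lowest difference, and the rank leaves out the spread, so it is a description and not a test.

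The second probe set of Elovl6, of other probes of the same gene, gave 5.14 and 5.36 in knockout glands and 6.24 and 7.03 in wild-type glands. Its difference of -1.39 (SE 0.33, 95% interval -2.34 to -0.43) was of similar size, though its wild-type arrays lay 0.78 apart. A remaining probe set read 2.38 to 2.60 and was not tested. Leaving out each array in turn gave differences of -1.50 to -1.14 for the first probe set. Without wild-type array 1 the difference was -1.49, and without knockout array 1 it was -1.14.

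Elovl5 elongates polyunsaturated chains, acting between the desaturases Fads2 and Fads1. Its first probe set read 12.36 and 12.32 in the knockout and 12.56 and 12.65 in wild type, which differ by -0.26 (SE 0.16, 95% interval -0.71 to 0.19). The arrays separated by genotype, but the second probe set did not repeat this. It read 12.40 and 12.34 in the knockout and 12.23 and 12.48 in wild type, with a difference of 0.01 (SE 0.18). The log2 difference of Elovl6 minus Elovl5 within each array differed between genotypes by -1.06, with no overlap (exact permutation p = 0.3333, two-sided, the smallest that 4 arrays allow). It uses the first probe set of each gene, and Elovl6 alone already separated the genotypes. The share of all gene pairs without overlap was not counted.

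The desaturases make double bonds at set positions of the chain. Scd1 and Scd2 place the first one in saturated chains, which gives oleate and palmitoleate. Scd1 read 10.88 and 11.75 in knockout glands and 12.22 and 12.09 in wild-type glands. Both knockout arrays were lower, knockout array 1 by far the most. The difference was -0.84 (SE 0.35, 95% interval -1.85 to 0.18), or 56.0% of wild type, and it ran from -1.27 without knockout array 2 to -0.40 without knockout array 1. A second, dim probe set of Scd1 read 5.11 and 5.91 in the knockout and 4.82 and 6.01 in wild type, with overlapping genotypes and a difference of 0.09 (SE 0.55).

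Scd2, a close paralog of Scd1 that is on the same chromosome with Scd4 between them in GRCm38.p6, overlapped between the genotypes. It read 13.08 and 13.06 in the knockout and 13.19 and 12.98 in wild type, which differ by -0.02 (SE 0.17). The 95% interval of -0.51 to 0.47 spans 70.1% to 139% of wild type. The second probe set of Scd2 gave 9.47 and 8.61 in the knockout, against 9.32 and 8.92 in wild type, with a difference of -0.08 (SE 0.38). Within arrays, Scd1 minus Scd2 differed between genotypes by -0.82, with no overlap (exact permutation p = 0.3333, two-sided). Here too, Scd1 alone already separated the genotypes. Elovl6 minus Scd1 differed by -0.48, and the genotypes overlapped (exact permutation p = 0.667, two-sided).

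Fads2 and Fads1 desaturate linoleate, linolenate and their products on the way to arachidonate and docosahexaenoate, and are neighbours on chromosome 19 in GRCm38.p6 with 0 protein-coding genes between them. All 3 tested probe sets of Fads2 separated the genotypes. The first read 11.98 and 11.61 in the knockout and 12.06 and 12.16 in wild type (difference -0.31, SE 0.21). The second read 9.57 and 8.98 in the knockout and 10.02 and 9.90 in wild type (difference -0.69, SE 0.27), and the last differed by -0.47 (SE 0.20). On each of them knockout array 2 was the lowest array, and without it the first probe set differed by -0.12.

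Fads1 read 12.69 and 12.31 in knockout glands and 13.06 and 12.91 in wild-type glands. The difference of -0.49 (SE 0.21, 95% interval -1.10 to 0.12) put the knockout at 71.3% of wild type. Without knockout array 2, again the lowest, it was -0.30. A dim second probe set of Fads1, over the filter on 3 of the arrays, read 4.69 and 3.90 in the knockout and 5.68 and 4.31 in wild type, which differ by -0.70 (SE 0.60) with overlapping genotypes. All 5 tested probe sets of the 2 neighbours had a negative difference, and 0 of them passed the unadjusted threshold.

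**Figure D2:**
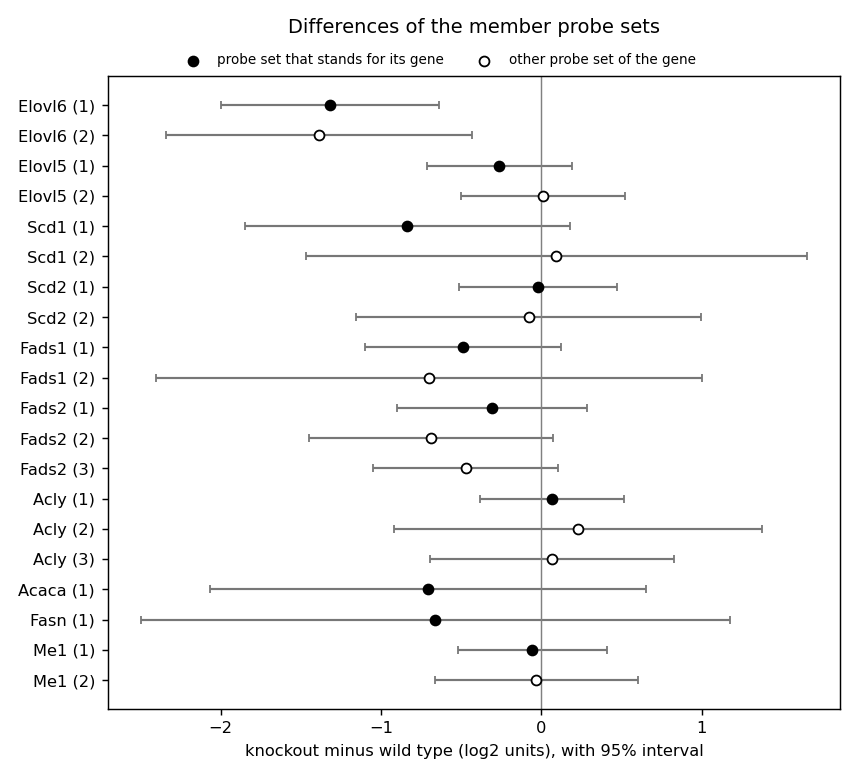
Difference of knockout minus wild type (log2 units) for each of the 20 tested member probe sets, with limma's 95% interval; filled points stand for their gene. The intervals of both Elovl6 probe sets, -2.00 to -0.64 and -2.34 to -0.43, do not reach 0, and those of the other 18 do.

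Acly cleaves citrate to supply acetyl-CoA, Acaca carboxylates it, Fasn assembles palmitate and Me1, malic enzyme, supplies NADPH. Acly was the 1 gene with a positive difference: 12.85 and 12.86 in the knockout against 12.75 and 12.83 in wild type, or 0.07 (SE 0.16, 95% interval -0.38 to 0.52). Its other tested probe sets differed by 0.23 (SE 0.40) and 0.07 (SE 0.27). Me1 read 13.59 on both knockout arrays and 13.57 and 13.72 on the wild-type arrays, a difference of -0.06 (SE 0.16, 95% interval -0.52 to 0.41), and -0.03 (SE 0.22) on its other probe set. These probe sets are bright, and with 2 arrays per genotype a change within these intervals could have gone unseen.

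Fasn, read by 1 probe set, gave 8.93 and 10.06 in knockout glands and 10.80 and 9.52 in wild-type glands. Knockout array 2 was above wild-type array 2, and the arrays of a genotype lay 1.13 and 1.28 apart, more than the difference of -0.66 (SE 0.64, 95% interval -2.50 to 1.18). Acaca, also with 1 tested probe set, had the same order of arrays: 6.90 and 7.70 in the knockout and 8.47 and 7.54 in wild type, with a difference of -0.71 (SE 0.48). Both differences rested on single arrays: without wild-type array 1 Fasn differed by -0.02 and Acaca by -0.24, and without knockout array 1 by -0.10 and -0.30. Relative to Acly within each array, Fasn overlapped between the genotypes (exact permutation p = 0.667, two-sided).

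**Figure D3:**
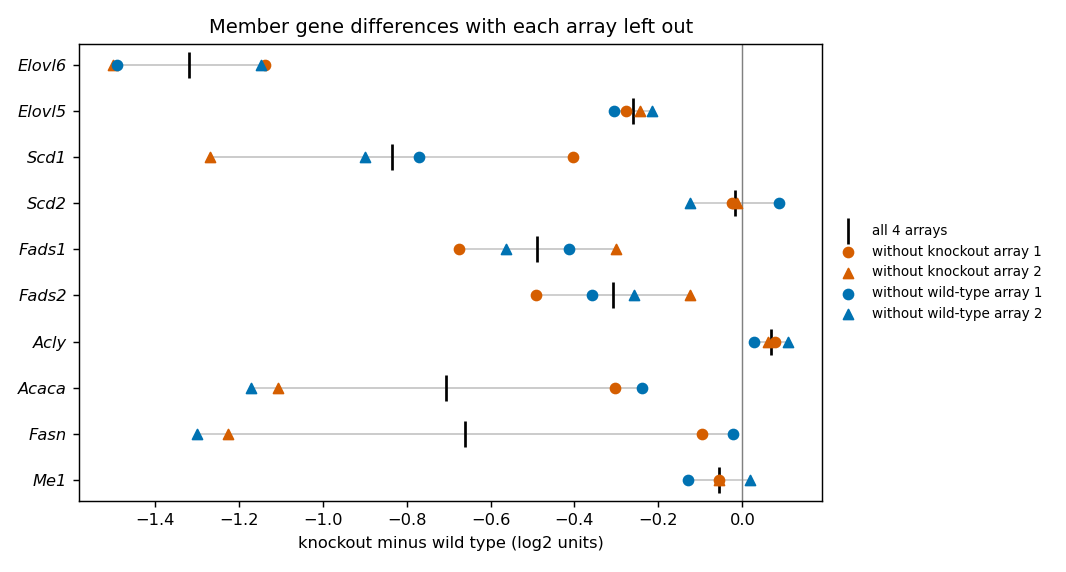
Difference of knockout minus wild type (log2 units) for each member gene with all 4 arrays (black bar) and with each array left out in turn (points). Elovl6 stays between -1.50 and -1.14, whereas Fasn runs from -1.30 without wild-type array 2 to -0.02 without wild-type array 1.

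Fat cells, which surround the adrenal, express these enzymes strongly, and their markers varied between arrays. Of 20 listed adipocyte markers 17 were on the array and 14 were tested, with 11 lower and 3 higher in the knockout and a median of -0.28. Left out in turn, knockout arrays 1 and 2 gave medians of 0.28 and -0.98, and wild-type arrays 1 and 2 gave 0.03 and -0.55. Their summed level, in linear units, was 8539 and 20224 on the knockout arrays and 18055 and 12410 on the wild-type arrays. Adipoq, the gene of adiponectin, read 7.76 and 10.16 in the knockout and 9.60 and 8.84 in wild type. Knockout array 1 was the lowest and wild-type array 2 the next lowest, as for Fasn and Acaca. The highest array differed: it was knockout array 2 for Adipoq and wild-type array 1 for Fasn and Acaca. The part of fat cells in Fasn and Acaca was not tested.

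Both knockout arrays lay below both wild-type arrays in 4 of the 14 tested adipocyte markers, where 20.5% of all genes did, and above them in 0. Of 4 tested markers of brown fat in the list, 3 had the lower pattern. Ucp1, the uncoupling protein of brown fat, read 2.80 and 5.91 in the knockout against 10.05 and 7.24 in wild type (difference -4.29, SE 1.54), and Cidea, a lipid droplet protein, read 3.37 and 6.06 in the knockout against 9.78 and 6.78 in wild type. Cox8b, a subunit of cytochrome oxidase, read 9.38 and 9.30 in the knockout and 11.33 and 10.07 in wild type (difference -1.36, or -0.73 without wild-type array 1). Cox7a1, another such subunit, overlapped, with 7.51 and 7.73 in the knockout and 8.37 and 7.18 in wild type (difference -0.15, SE 0.47, or 0.44 without wild-type array 1). The array order of the first Scd1 probe set was that of Ucp1 and Cidea and not that of Cox8b or Cox7a1. The dim second probe set of Scd1 had another order, with wild-type array 1 the lowest. Elovl6 had its highest value on wild-type array 2, where Ucp1 and Cidea read lower than on wild-type array 1. The brown fat part in the differences of Scd1 and Elovl6 was not tested, and the order of 4 arrays is no test of it. Slc2a4, the insulin-responsive glucose transporter of fat and muscle, differed by -1.56 (SE 0.30), while Lep read 2.30 on every array and Dio2 at most 3.08. Among liver markers, of which 2 of 10 on the array were tested, Alb, Apoa1 and Ttr read high on wild-type array 1 alone, Serpina1b read 2.30 on both knockout arrays and 7.97 and 7.20 on the wild-type arrays, and Hp differed by -0.45, or by 0.67 without wild-type array 1. Cidea, Cox7a1, Lep, Dio2, Apoa1 and Ttr were named after their values were seen.

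**Figure D4:**
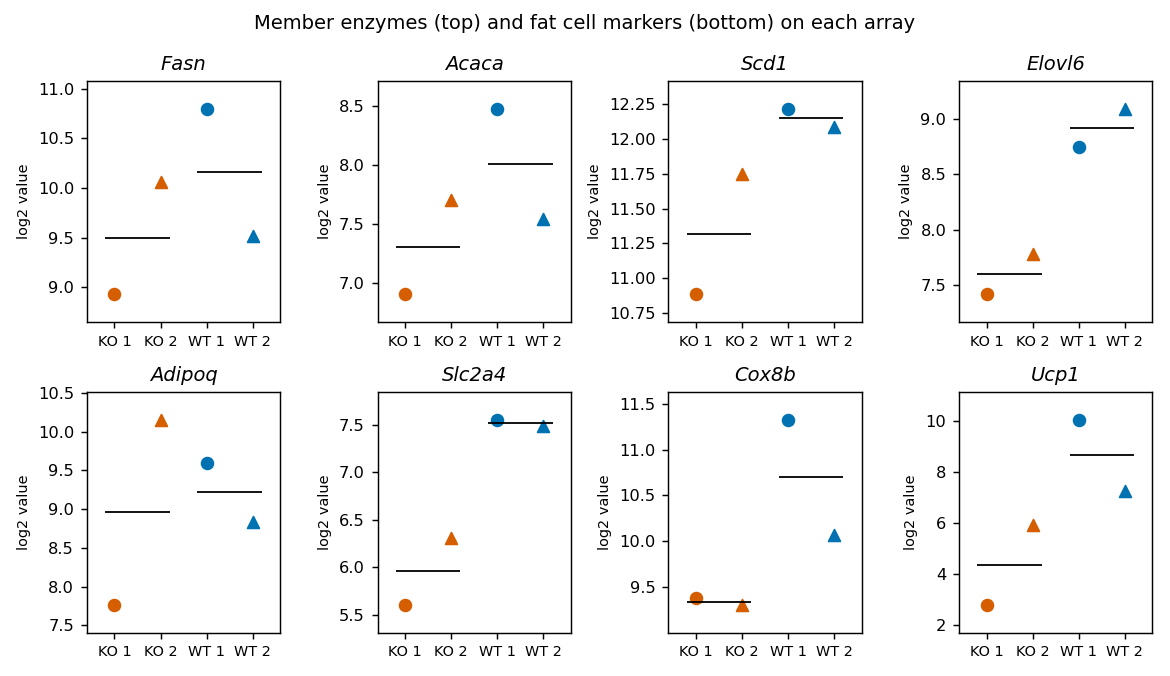
Log2 value on each knockout array (KO, orange) and wild-type array (WT, blue) for 4 member enzymes (top) and 4 fat cell markers (bottom), with the genotype mean as a bar; each panel has its own axis, which does not start at 0. Fasn, Acaca and Adipoq overlap between genotypes, and Scd1, Elovl6, Slc2a4, Cox8b and Ucp1 have both knockout arrays below both wild-type arrays. The markers are those the naming rule picks, and other markers of the list, such as Cox7a1, overlap.

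Most genes that control lipogenesis also had negative differences, and none passed the threshold. Of 24 listed regulators 21 were tested, with 17 lower and 4 higher, a median of -0.28 and 0 at an unadjusted limma p under 0.05. Without wild-type array 1 this median was -0.06, and without wild-type array 2 it was -0.41. Srebf1 read 9.29 and 9.18 in the knockout and 9.86 and 9.39 in wild type (difference -0.38, SE 0.23), and Srebf2 6.64 and 6.72 in the knockout against 6.82 and 7.12 in wild type (difference -0.29, SE 0.19). Insig1, which holds SREBP in the endoplasmic reticulum and is itself an SREBP target, read 7.63 and 7.40 in the knockout and 8.11 and 9.07 in wild type, which differ by -1.07 (SE 0.39, 95% interval -2.19 to 0.04). Without wild-type array 1 and without wild-type array 2, Srebf1 differed by -0.15 and -0.62, Srebf2 by -0.44 and -0.15 and Insig1 by -1.55 and -0.60. In these 3 genes both knockout arrays were below both wild-type arrays. Over the list this held for 6 of the 21 tested regulators, where 20.5% of all genes did so, and 2 had both knockout arrays above. Mlxipl, the carbohydrate-responsive factor, differed by -0.35 (SE 0.28), or -0.08 without wild-type array 1, and Prkaa1, a catalytic subunit of AMP-activated kinase, by 1.44 (SE 0.76), with wild-type array 1 at 5.74 and the other arrays at 7.77 to 8.22, or by 0.43 without that array. Thrsp, a lipogenic nuclear protein named after its values were seen, read 8.76 and 9.41 in the knockout and 11.23 and 8.66 in wild type.

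The partner enzymes of elongation and desaturation had a median of -0.27, with 12 of 16 tested genes lower and 0 past an unadjusted p of 0.05. Both knockout arrays lay below both wild-type arrays in 9 of the 16, where 20.5% of all genes did. Cyb5r3, the reductase that feeds electrons through cytochrome b5 to the desaturases, read 11.24 and 11.15 in the knockout and 11.56 and 11.51 in wild type (difference -0.34, SE 0.16). Mcat, a transferase of mitochondrial fatty acid synthesis, differed by -0.46 (SE 0.19), Hacd2, a dehydratase of the elongation cycle, by -0.63 (SE 0.31) and Elovl1, an elongase of long saturated chains, by -0.59 (SE 0.30). Hsd17b12, the ketoacyl reductase of that cycle, differed by 0.02 (SE 0.25). Without wild-type array 1 and without wild-type array 2, Hacd2 differed by -0.29 and -0.97, Elovl1 by -0.24 and -0.94, and Hsd17b12 by -0.22 and 0.27. Several paralogs of the members were below the filter, among them Scd3 at 2.30 to 2.33, Elovl2 at 2.30 and Elovl3, which read 4.45 on wild-type array 1 and at most 2.33 elsewhere, while Acacb, Fads6 and Me2 were over it and differed by -0.33 (SE 0.37), -0.22 (SE 0.31) and 0.19 (SE 0.29), or by 0.12, -0.50 and -0.13 without wild-type array 1. Apart from Scd3, these paralogs were named after their values were seen.

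The lists on both sides of the pathway had medians near that of all genes, with single genes on either side. Carbon and NADPH supply had a median of -0.07 over 13 tested genes, 10 lower and 3 higher, 0 of them at an unadjusted p under 0.05. Slc25a1, which exports mitochondrial citrate, differed by -0.44 (SE 0.30), Acss2, which makes acetyl-CoA from acetate, by -0.40 (SE 0.40), and Pgls, of the pentose phosphate pathway, by -0.56 (SE 0.31). All 3 leaned on wild-type array 1, without which Slc25a1 differed by -0.10, Acss2 by 0.10 and Pgls by -0.19, while without wild-type array 2 they differed by -0.78, -0.91 and -0.92. Fatty acid activation and glycerolipid synthesis had a median of -0.09 over 23 genes, 15 lower and 8 higher. There Gpat3, which starts glycerolipid synthesis, read 6.31 and 6.24 in the knockout and 4.68 and 5.62 in wild type, with a difference of 1.13 (SE 0.38, 95% interval 0.05 to 2.20), while Agpat1 and Agpat2, of the next step, differed by -0.50 (SE 0.19) and -1.03 (SE 0.49). Without wild-type array 1 and without wild-type array 2, Gpat3 differed by 0.66 and 1.60 and Agpat2 by -0.40 and -1.66. Fatty acid oxidation had a median of -0.03 over 19 genes, 10 lower and 9 higher, which ran from -0.89 to 1.47. Eci1 was at -0.89 (SE 0.24, 95% interval -1.57 to -0.20), Etfdh at 0.27 and Acadl at 0.26. The highest, Cpt1a, named after its values were seen, differed by 0.14 without wild-type array 1.

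Beside these, the 19 tested genes of cholesterol synthesis had a median of -0.87, with 18 lower. Of them, 10 were at an unadjusted limma p under 0.05, where 5.06% of all genes were. In 14, both knockout arrays lay below both wild-type arrays, where 20.5% of all genes did, and they lay above in 0. The difference between the medians of the 2 lists was not tested. Among single genes, the Elovl6 difference of -1.32 stood beside -1.33 for Fdps, -1.44 for Hmgcs1 and -1.80 for Idi1, enzymes of cholesterol synthesis. The plot of gene differences by list shows these values.

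**Figure D5:**
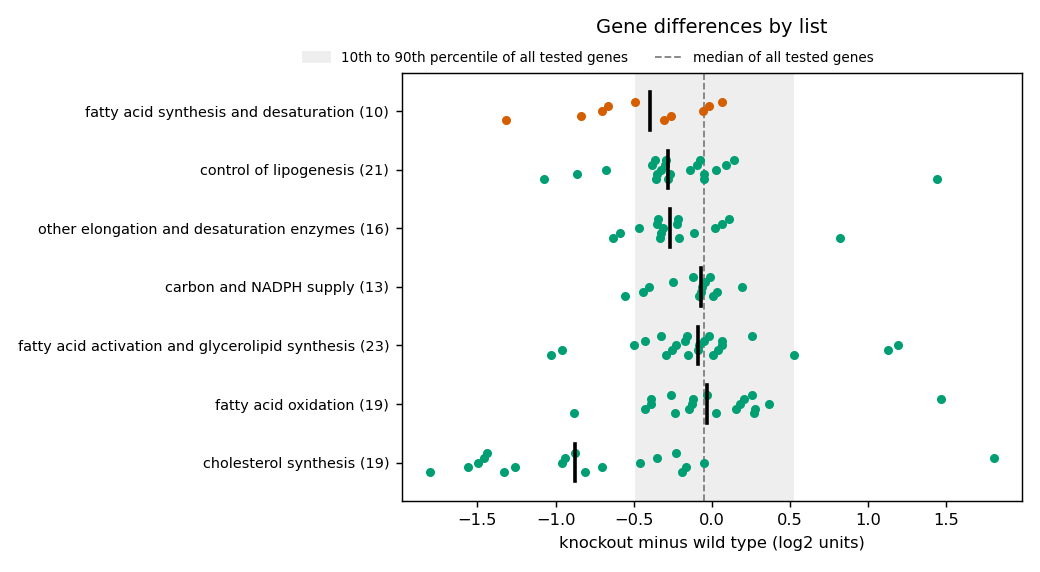
Difference of knockout minus wild type (log2 units) for each tested gene of 7 lists, with the number of genes in brackets and the list median as a black bar; the grey band spans the 10th to 90th percentile of all tested genes, -0.49 to 0.52. The fatty acid enzymes run from -1.32 to 0.07 around a median of -0.40. The median of the oxidation genes is -0.03, though they run from -0.89 to 1.47, and that of cholesterol synthesis is -0.87.

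Promoter windows of 300 bases, from 250 bases before to 50 after an annotated start, were taken from RefSeq (GRCm38.p6) for 7 of the members. Shown are 2 genes in which all tested probe sets read lower with the arrays separated by genotype (Elovl6 and Fads2), Fasn, in which the arrays overlapped, and Acly, in which all differences were above 0 and at most 0.23. Capitals mark matches, on either strand, to the sterol response element core TCACNCCAC, the E-box CACGTG, the NF-Y box CCAAT and the GC box GGGCGG, the last 2 bound by cofactors of SREBP.
Elovl6, chr3:129532136-129532435, plus strand: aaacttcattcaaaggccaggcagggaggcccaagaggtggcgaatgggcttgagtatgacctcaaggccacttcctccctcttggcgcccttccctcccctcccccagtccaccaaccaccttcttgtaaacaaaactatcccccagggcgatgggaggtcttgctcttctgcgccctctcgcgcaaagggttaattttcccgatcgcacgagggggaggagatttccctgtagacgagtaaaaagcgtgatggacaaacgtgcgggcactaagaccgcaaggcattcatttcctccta
Fads2, chr19:10101454-10101753, minus strand: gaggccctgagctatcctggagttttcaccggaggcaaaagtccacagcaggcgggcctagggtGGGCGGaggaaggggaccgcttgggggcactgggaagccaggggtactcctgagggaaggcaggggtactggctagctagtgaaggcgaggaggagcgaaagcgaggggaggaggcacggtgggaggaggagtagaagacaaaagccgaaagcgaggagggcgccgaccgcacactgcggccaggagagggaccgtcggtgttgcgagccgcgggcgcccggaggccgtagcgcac
Fasn, chr11:120824498-120824797, minus strand: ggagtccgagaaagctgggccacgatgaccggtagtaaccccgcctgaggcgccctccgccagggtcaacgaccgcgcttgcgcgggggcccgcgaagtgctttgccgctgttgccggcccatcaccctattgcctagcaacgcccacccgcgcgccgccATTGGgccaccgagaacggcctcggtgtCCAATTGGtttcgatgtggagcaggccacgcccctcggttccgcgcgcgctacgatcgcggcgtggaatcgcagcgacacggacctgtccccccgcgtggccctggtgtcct
Acly, chr11:100527951-100528250, minus strand: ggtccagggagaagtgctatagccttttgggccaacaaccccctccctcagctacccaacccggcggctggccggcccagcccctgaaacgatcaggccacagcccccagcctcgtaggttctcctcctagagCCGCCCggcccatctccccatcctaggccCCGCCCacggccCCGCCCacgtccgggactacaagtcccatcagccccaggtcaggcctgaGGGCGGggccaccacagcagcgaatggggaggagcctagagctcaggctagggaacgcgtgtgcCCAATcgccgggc

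Elovl6 held none of these motifs in its window, and Fads2 held 1 GC box. Fasn held 3 NF-Y boxes, 2 of which overlap on opposite strands, and its window lies inside the RefSeq gene span, which starts further upstream. Acly held 4 GC boxes and 1 NF-Y box. The sterol response element core was in none of the members' 8 windows, and it was in 1.24% of the table's 32851 windows. The E-box was in 7.15% of them and in Elovl5 alone among the members, the NF-Y box in 37.4% and the GC box in 35.7%. A missing match says only that these letters are not in this window.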

How the data were processed

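The authors hybridised adrenal RNA with an RNA integrity number of 8.0 to 9.0 to 4 arrays and processed the scans by GCRMA (Bioconductor 3.14, per the submitters' processing notes), per the labels' protocols, and deposited 1 log2 value for each probe set. That scale was read from the values. GCRMA subtracts a sequence-based background, normalizes between arrays and summarises probes, so differences of dim probe sets can be compressed. Its version is not given in the sources used here.

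The 64 control probe sets were left out. Testing was limited to probe sets at 4 log2 units or more on 2 or more of the 4 arrays. Genotypes came from the sample titles. The genotypes were set against each other with lmFit and eBayes of limma 3.58.1 (R 4.3.3, genotype only, 2 residual and 1.73 prior degrees of freedom). P-values were adjusted by Benjamini-Hochberg across the 17228 tested probe sets, and thresholds were 0.05. Each SE and 95% interval is limma's moderated one, each SD is over 2 arrays, and the number of arrays limits the precision. Genes came from the platform annotation, where 34945 probe sets have 1 gene, 932 several and 9160 none. All 10 member symbols matched GRCm38.p6 by gene ID. Summed levels are sums of 2 to the power of the log2 value over a list's tested genes.

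Named are all members and, from the other lists described, the 3 genes with the smallest p and fixed reference genes. Lists of chromaffin, cortical, kidney and glial markers had medians of 0.00, -0.12, -0.88 (2 genes) and -0.04. The chromaffin median hides a spread within each genotype. The summed level of these markers was 64244.5 and 42020.2 on knockout arrays 1 and 2, and 67923.1 and 42891.1 on wild-type arrays 1 and 2. The part of the medulla in the member values was not tested. The members and lists were chosen with earlier results of these data known. In simulated arrays for this comparison, with 17228 probe sets, an unadjusted p under 0.05 recovered 74.2% of changes of 1 log2 unit and the adjusted threshold 0%. For changes of 4 log2 units the adjusted threshold recovered 23.6%. Alternatives were other filters, quantile normalization, median centring, a variance trend, the replicate number as a block, probe sets without a cross-hybridisation suffix, each array left out, and other values per gene.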

Additional observations from a re-analysis of the deposited data

How the results depend on the processing

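The median over the member genes was -0.40 with all arrays, between -0.43 and -0.36 under the alternatives that kept all arrays, and between -0.41 and -0.27 with each array left out. The count of member probe sets at an unadjusted limma p under 0.05 was 2 under each of the 7 alternatives that kept all arrays and probe sets as units, and 0 to 3 with each array left out, where 0.981% to 37.8% of all probe sets passed. It was 0 without knockout array 1, where 0.981% passed, and 3 without wild-type array 2, where 37.8% did. A genotype reduced to 1 array borrows its spread from the remaining pair. In limma the adjusted threshold was passed by 0 member probe sets under these 7 and with each array left out, and by 2 probe sets in all with the filter at 6, quantile normalization, centred arrays and probe sets without a cross-hybridisation suffix. Neither count was made for the alternatives with another value per gene. The signs of the smallest differences turned: Scd2 was 0.065 with quantile normalization and 0.0048 with centred arrays, and ran from -0.125 to 0.088 with each array left out. Me1 was 0.015 with quantile normalization and ran from -0.129 to 0.018 with each array left out. Elovl5 was 0.011 with probe sets without a cross-hybridisation suffix only, which puts its other probe set in place. Of 130 comparisons of a member gene with its main value, 121 kept their sign and their side of the unadjusted threshold, 6 changed sign, 1 lost it (Elovl6 without knockout array 1) and 2 gained it (Elovl5 without a filter and Scd1 without knockout array 2). The causes were not tested. Other filters, the variance trend and the block leave the difference of a given probe set as it is. Under them a gene's difference, and with it the median, could change only if another probe set stood for the gene. With the replicate number as a block the count stayed 2 and the median -0.40. In the labels same-numbered arrays share only a number, and their deviations correlated at 0.154 over probe sets. The summed level of the chromaffin markers was higher on array 1 than on array 2 in both genotypes. Depth is unknown for arrays, and 6 of the 26 member probe sets lay near the background, at 2.30 to 2.60.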
